A study of Arabidopsis thaliana with 18 samples.

Results

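The spliceosomal Sm core proteins were described here through 10 Arabidopsis thaliana genes, chosen by gene identifier out of the 37916 genes in the table. They are 4 pairs of paralogs, SMD1A (AT3G07590) and SMD1B (AT4G02840), SMD2A (AT2G47640) and SMD2B (AT3G62840), SMD3A (AT1G76300) and SMD3B (AT1G20580), and SMB-A (AT5G44500) and SMB-B (AT4G20440), with SME1 (AT2G18740) and SMF (AT4G30220). All 10 passed the minimum of 1 TPM, averaged over the libraries, that a gene needed to enter the tests.

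Messenger RNA of whole seedlings was sequenced in 18 libraries, 3 in each of 6 groups. The plants were wild type (WT) or carried an insertion in PRMT5 (labelled PRMT5 T-insert, called prmt5 here), and grew on half-strength MS medium with sucrose. They were kept at 22 °C, held at 37 °C for 3 days and sampled at the end of that heat (called heat), or sampled 24 h after it ended (called recovery). The ecotype, the age of the seedlings, the allele of the insertion and the number of plants in a library are not given in the sources used here. Values are TPM, a transcript level corrected for gene length and scaled to the same total in every library, so a TPM is a share of the messenger RNA pool and the sequencing depth is unknown. Changes are differences of log2(TPM + 1) with their standard error, tested with limma, and "rose" or "fell" is written where the Benjamini-Hochberg adjusted p over all 21831 tested genes was under 0.05.

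Sm proteins B, D1, D2, D3, E, F and G form a ring around the small nuclear RNAs of the spliceosome, the machine that removes introns from messenger RNA. In animals and plants, PRMT5 places symmetric dimethyl marks on arginines that precede glycines in the tails of some Sm proteins. In animals these marks help the assembly chain, with ICLN and the Gemin proteins, to load the ring onto the RNA. In Arabidopsis, SMD1B has been studied in gene silencing, SMD3B in development and SME1 in growth at low temperature.

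The coding sequences differed in how many of these arginine-glycine steps they hold. Read from the RefSeq annotation of TAIR10.1, the longest coding sequence had 8 arginine codons followed by a glycine codon in SMD1A and 9 in SMD1B. SMD3A and SMD3B had 7 each, SMB-A had 4 and SMB-B 5. SMD2A, SMD2B and SMF had 1 each and SME1 had 0. A codon pair is a description of the sequence and says nothing of whether the arginine is methylated. The paralogs were alike in sequence, with 78.4% identical bases over the aligned coding sequence of SMD1A and SMD1B, 89.4% for the SMD2 pair, 86.4% for the SMD3 pair and 87.3% for the SMB pair. The longest exact run that their transcripts shared was 26 bases for SMD1, 32 for SMD2, 50 for SMD3 and 38 for SMB. Reads that fall in such runs can be assigned to either paralog, so the division of reads within a pair is uncertain to that extent.

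Upstream sequences of 100 bases before the annotated gene start are shown for the SMD1 and SMD3 pairs and for SMD2B, to set the paralogs side by side. They are from TAIR10.1, 5′ to 3′ on the strand of the gene. Capitals mark the letters TGGGCC (a form of the site II element of plant promoters) on either strand. Other forms of that element were not searched or marked. SMD1A lies at chr3:2422951-2423050 (plus strand), SMD1B at chr4:1264418-1264517 (plus), SMD2B at chr3:23236817-23236916 (minus), SMD3A at chr1:28625771-28625870 (plus) and SMD3B at chr1:7128767-7128866 (plus).
SMD1A: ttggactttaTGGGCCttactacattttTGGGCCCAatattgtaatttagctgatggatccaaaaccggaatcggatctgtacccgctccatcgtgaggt
SMD1B: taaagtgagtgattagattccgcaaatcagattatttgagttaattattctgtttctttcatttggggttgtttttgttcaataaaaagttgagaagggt
SMD2B: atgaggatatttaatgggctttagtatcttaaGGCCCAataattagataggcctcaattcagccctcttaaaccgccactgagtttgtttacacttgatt
SMD3A: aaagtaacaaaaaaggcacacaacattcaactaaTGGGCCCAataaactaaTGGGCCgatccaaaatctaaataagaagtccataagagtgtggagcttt
SMD3B: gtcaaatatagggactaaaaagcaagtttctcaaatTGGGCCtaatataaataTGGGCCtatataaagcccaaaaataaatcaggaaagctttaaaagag

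TGGGCC stood in the last 100 bases upstream of 7 of the 10 genes (SMD1A, SMD2A, SMD2B, SMD3A, SMD3B, SMB-A and SME1), against 8.81% of 27443 nuclear protein-coding genes. Over 250 bases it was upstream of the same 7, against 13.7%. In SMD1A and SMD3A 2 of the matches overlap as TGGGCCCA, which reads the same on both strands. The window of SMD2A overlaps the neighbouring gene AT2G47630 and is not shown; its match lies 70 to 65 bases before the start, and that of SMD2B 68 to 63 bases before it. SMD1B, SMB-B and SMF had no match there. The heat shock element cores GAANNTTC and TTCNNGAA, searched on both strands over 250 bases, were in 0 and 2 of the 10 windows, against 9.55% and 7.68% of all genes. The 2 were SMB-A, with TTCTCGAA, and SMB-B, with TTCAGGAA, while the SMD2B window held neither. The telo-box AAACCCTA was in 0 of the 10 windows (4.49% of all genes) and the G-box CACGTG in that of SMB-B alone (6.49%). The 250-base windows of SMD1A, SMD2A, SMD3B, SMB-B and SME1 overlap a neighbouring gene (AT4G20450 for SMB-B).

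PRMT5 (AT4G31120), the gene that carries the insertion, had 27.4, 26.3 and 25.3 TPM in WT and 2.32, 3.35 and 4.51 TPM in prmt5 at 22 °C. Its transcript was lower in prmt5 in each condition (log2 difference -2.67 ± 0.17 at 22 °C, -2.64 ± 0.17 at heat and -3.09 ± 0.17 at recovery, limma adjusted p of 1.5e-07, 5.9e-09 and 3.4e-09). Mitochondrion-encoded genes took 0.00508% to 0.0116% of TPM at 22 °C and 2.13% to 2.58% at heat. Library 3 of prmt5 at recovery stood apart from its group with 0.862%, against 0.26% and 0.249%, so counts and leading values on that group are also given without it. Plastid-encoded genes took 0.423% of TPM in WT heat library 2, against 0.0974% and 0.07% in libraries 1 and 3 of that group. The seedling label was checked with marker lists, and no marker was at 0 throughout a group. The summed level of 4 leaf mesophyll markers ranged from 23888 to 26356 TPM in WT and 20260 to 25558 TPM in prmt5 at 22 °C, from 1588 to 3407 and 1675 to 1825 TPM at heat, and from 2653 to 4867 and 702 to 1450.4 TPM at recovery. Taken singly, 3 of the 4 fell in WT at heat and 1 did not pass (log2 changes from -3.98 to 0.97), beside 25.7% of all tested genes that fell. For 4 markers of dividing cells the sums were 129 to 141 TPM in WT and 146 to 221 TPM in prmt5 at 22 °C, 42.8 to 57.5 and 19.3 to 25.9 TPM at heat, and 94.6 to 110.1 and 48.5 to 52.5 TPM at recovery. For 4 root markers the ranges were 10.9 to 97.7 and 39.8 to 84.0 TPM at 22 °C, 2.04 to 6.73 and 8.66 to 14.4 TPM at heat, and 21.4 to 46.4 and 22.9 to 24.3 TPM at recovery. The part of these differences in the Sm gene results was not tested, and in whole seedlings fewer cells of a type and less RNA per cell cannot be told apart.

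At 22 °C in WT the 10 genes ranged over a wide span of levels. SMD2B was highest with 219 ± 14.3 TPM (SD, n = 3, as for every mean below), followed by SMF with 152 ± 7.06, SME1 with 124 ± 2.41, SMD3B with 109.5 ± 5.33 and SMD1B with 89.9 ± 3.56 TPM. SMD3A with 69.9 ± 2.16 and SMD2A with 69.7 ± 1.77 TPM overlapped in their libraries, and SMB-B with 58.0 ± 3.76, SMD1A with 38.2 ± 2.32 and SMB-A with 10.8 ± 0.226 TPM came last. No other neighbours in this order overlapped. In each of the D1, D2, D3 and B pairs the B paralog was the higher one in unstressed WT seedlings.

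**Figure D1:**
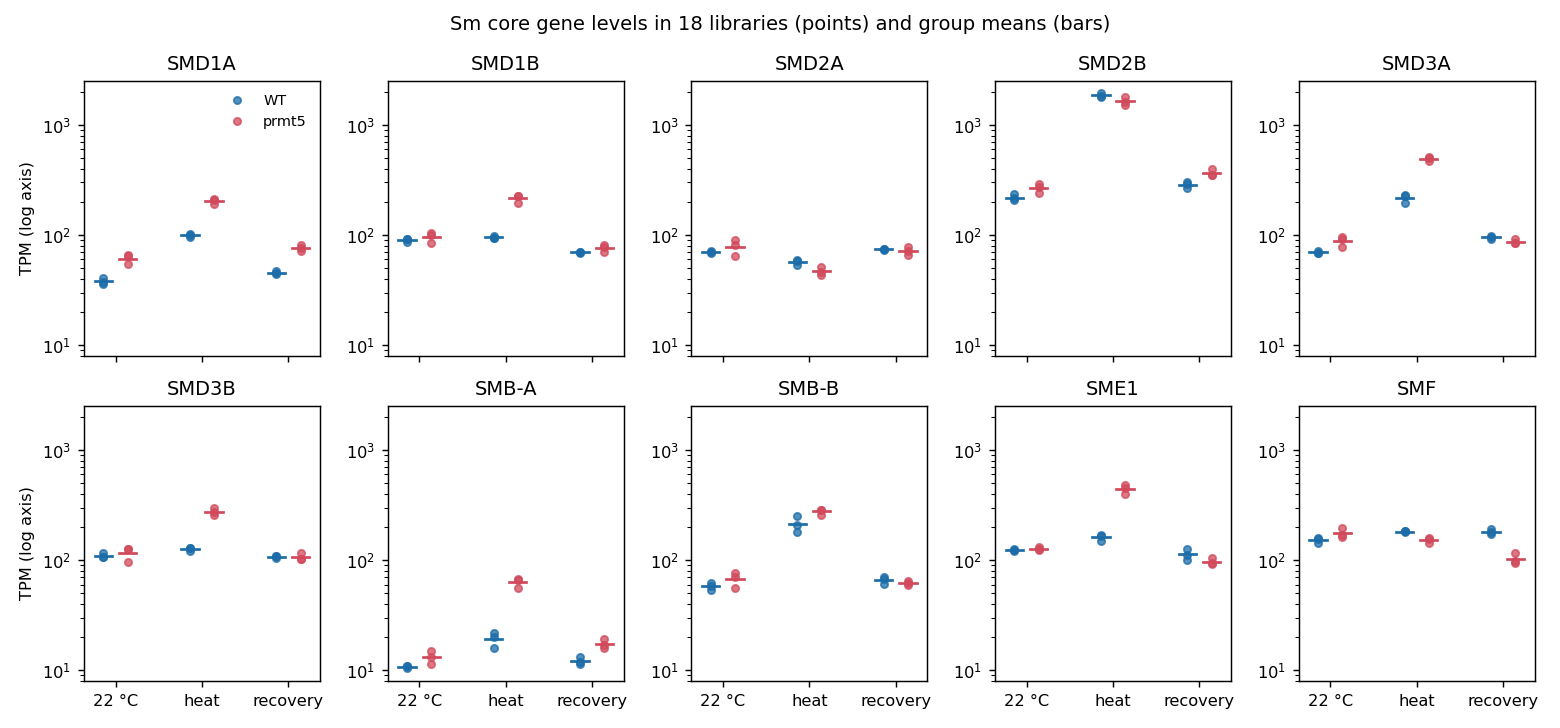
TPM (log axis) of each Sm core gene in every library (points) and the group mean (short bars), for WT and prmt5 at 22 °C, heat and recovery. SMD2B at heat stands above 1500 TPM in all 6 libraries, and SMB-A is the lowest gene in every group except prmt5 at heat, where SMD2A is.

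In WT at heat SMD2B rose far more than the other Sm core genes. SMD2B had 215, 207 and 235 TPM at 22 °C and 1810.1, 1964 and 1794 TPM at heat. All heat libraries lay above all libraries at 22 °C. The log2 change was 3.08 ± 0.09 (8.45-fold on the TPM + 1 scale, limma adjusted p = 1.4e-13), which is above that of 97.1% of tested genes. Its paralog SMD2A had 69.6, 68.0 and 71.5 TPM at 22 °C and 53.1, 57.9 and 58.8 TPM at heat. SMD2A fell, with groups that did not overlap, by 0.30 ± 0.10 on the log2 scale (adjusted p = 0.015; 0.058 without WT heat library 1).

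SMB-B, of the B subunit, went from 54.1, 58.4 and 61.5 TPM to 181, 251 and 208 TPM, a log2 change of 1.85 ± 0.12 (limma adjusted p = 1.1e-09). SMD3A went from 72.3, 68.2 and 69.1 TPM to 196, 231 and 226 TPM (1.62 ± 0.08, adjusted p = 8.6e-11). SMD1A went from 36.2, 37.5 and 40.7 TPM to 95.7, 101 and 101 TPM (1.36 ± 0.08, adjusted p = 3.2e-10). The lowest gene, SMB-A, went from between 10.6 and 11 TPM to 15.8, 20.1 and 21.9 TPM (0.77 ± 0.12, adjusted p = 3.5e-05). None of these groups overlapped, nor did those of any other Sm core gene in this comparison, called or not. The share of all tested genes without overlap was not computed, so overlap is given as a description.

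The other 4 genes moved little in WT, and their direction depended on how libraries were scaled. SME1 rose by 0.38 ± 0.09 (adjusted p = 0.001) and SMF by 0.25 ± 0.09 (adjusted p = 0.014; 0.059 without WT 22 °C library 2), but with median-ratio scaling their changes were -0.03 and -0.15 and past no threshold. SMD1B, at 89.9 ± 3.56 and 96.0 ± 2.44 TPM, did not pass (log2 change 0.10 ± 0.08, adjusted p = 0.3) and fell with median-ratio scaling (-0.31, adjusted p = 0.0061). SMD3B, at 109.5 ± 5.33 and 127 ± 4.78 TPM, missed the threshold (0.21 ± 0.09, adjusted p = 0.052), and its change was -0.19 with that scaling. It passed with organelle genes left out (0.25, adjusted p = 0.027), with only the groups compared (adjusted p = 0.016), and without WT 22 °C library 1 (0.047), prmt5 22 °C libraries 1 (0.01), 2 (0.048) or 3 (0.047), prmt5 heat library 1 (0.049) or prmt5 recovery library 3 (0.048).

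In all, 7 of 10 Sm core genes rose in WT at heat, 1 fell and 2 did not pass (median log2 change 0.57). Among all tested genes 49.8% rose and 25.7% fell, and their median change was 0.35. Median-ratio scaling, which set the median of all genes to 0.00, left 5 higher and 2 lower (median 0.18). With that scaling 37.2% of all tested genes rose and 37.3% fell. Beside a background of 49.8%, the count of 7 says little of the members as a group. By size, SMB-B exceeded 90.4% of tested genes, SMD3A 87.6% and SMD1A 82.8%.

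In prmt5 heat raised 8 Sm core genes and lowered 2, SMD2A and SMF (median 1.76, against 0.19 for all tested genes, of which 45.5% rose and 36% fell). With median-ratio scaling the counts were 8 and 2 as well, beside 42.6% and 39.6% of all tested genes. SMD2B went from 243, 291 and 273 TPM to 1503, 1599 and 1793 TPM (2.60 ± 0.09, limma adjusted p = 5.6e-13). SMD3A went from 77.6, 95.9 and 92.4 TPM to 471, 502 and 509 TPM (2.47 ± 0.08, adjusted p = 3.7e-13). Their heat and 22 °C libraries did not overlap.

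SMB-A reached 55.3, 67.8 and 66.1 TPM in prmt5 at heat from 11.4, 15.1 and 13.2 TPM at 22 °C, a log2 change of 2.17 ± 0.12 (limma adjusted p = 1.4e-10). SME1 reached 399, 477 and 453 TPM from 122, 132 and 127 TPM (1.79 ± 0.09, adjusted p = 2.2e-11). SMD1B, which had not passed in WT, reached 196, 225 and 228 TPM from 85.0, 105 and 100.3 TPM (1.16 ± 0.08, adjusted p = 2e-09). SMD3B reached 254, 296 and 276 TPM from 96.3, 126 and 126 TPM (1.25 ± 0.09, adjusted p = 4.4e-09). All 4 were higher in every heat library than in any 22 °C library.

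SMB-B rose by 2.03 ± 0.12 (adjusted p = 1.7e-10) and SMD1A by 1.72 ± 0.08 (adjusted p = 9.7e-12). SMD2A fell by 0.72 ± 0.10 (adjusted p = 7.6e-06), from 64.0, 89.2 and 81.3 TPM to 43.1, 46.6 and 50.8 TPM. SMF fell by 0.20 ± 0.09 (adjusted p = 0.039), from 163, 196 and 169 TPM to 156, 143 and 158 TPM. That last call ended without prmt5 22 °C library 2 (-0.12, adjusted p = 0.21) and without prmt5 heat library 2 (-0.16, adjusted p = 0.14). The SMF call also ended with organelle genes left out (-0.17, limma adjusted p = 0.081) and with only the groups compared (-0.203, 0.089).

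**Figure D2:**
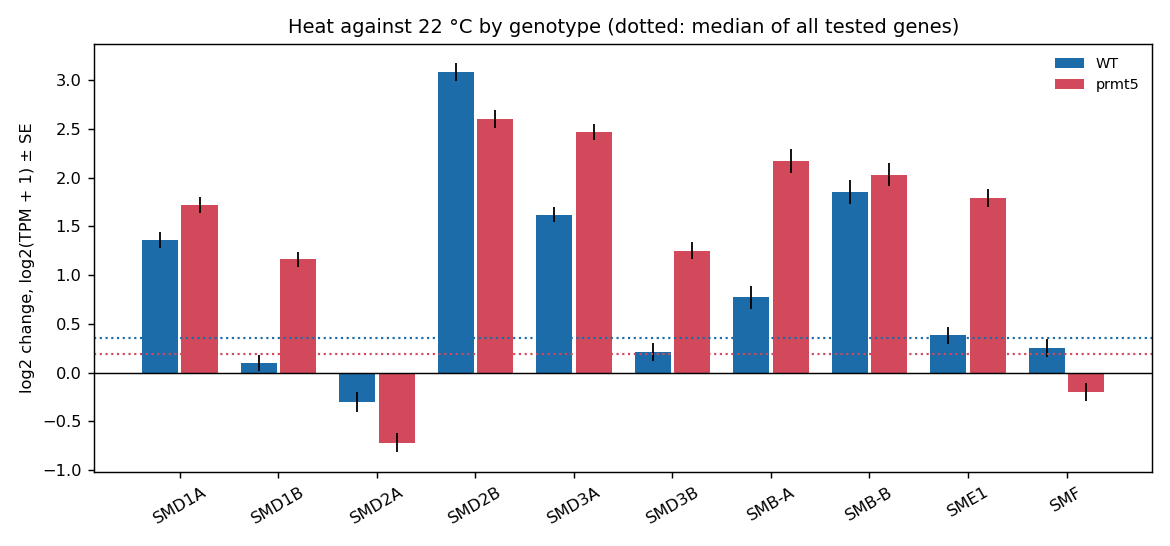
Log2 change at heat against 22 °C on the log2(TPM + 1) scale (bars, with SE) for each Sm core gene in WT and prmt5, with dotted lines at the median of all tested genes (0.35 in WT, 0.19 in prmt5). SMD2B has the tallest bar in both genotypes, while SMB-A, SME1, SMD1B and SMD3B stand higher in prmt5 than in WT.

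The difference between the heat responses of the genotypes was tested as an interaction, prmt5 response minus WT response. For 6 genes the response was higher in prmt5, for 3 it was lower (7 and 0 with median-ratio scaling), and SMB-B did not pass (0.18 ± 0.17, limma adjusted p = 0.39; past the threshold with median-ratio scaling, 0.43). Among all tested genes 18% were higher and 33.3% lower in this interaction, and the median was -0.19, against 0.61 for the Sm core genes. With median-ratio scaling 27.4% of all tested genes were higher and 25.7% lower. SME1 differed most, by 1.41 ± 0.12 (adjusted p = 8.1e-07), then SMB-A by 1.40 ± 0.17 (1.3e-05), SMD1B by 1.06 ± 0.12 (4.7e-06), SMD3B by 1.04 ± 0.13 (1.8e-05), SMD3A by 0.85 ± 0.12 (3.3e-05) and SMD1A by 0.37 ± 0.11 (0.012; 0.095 with quantile normalization), with adjusted p in brackets. The lower 3 were SMD2A (-0.42 ± 0.14, adjusted p = 0.023), SMD2B (-0.48 ± 0.13, 0.0055) and SMF (-0.46 ± 0.12, 0.0053). With median-ratio scaling these 3 were no longer past the threshold (-0.18, -0.23 and -0.21), and that of SMD2A ended without WT heat library 3 (-0.39, adjusted p = 0.051), prmt5 heat library 1 (-0.36, 0.056) and prmt5 22 °C libraries 2 (-0.32, 0.068) or 3 (-0.39, 0.053).

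Genotypes compared within a condition differed most at heat. There 7 Sm core genes were higher in prmt5 and 2 lower (median 1.07), while among all tested genes 19.9% were higher, 48.3% lower and the median was -0.34. Median-ratio scaling left 7 higher and 0 lower, beside 33.7% and 33.4% of all tested genes. SMB-A was 1.67 ± 0.12 higher (63.1 ± 6.79 against 19.3 ± 3.10 TPM, limma adjusted p = 2.5e-08) and SME1 1.45 ± 0.09 higher (443 ± 39.8 against 162 ± 10.7 TPM, adjusted p = 4.2e-09). SMD3A (1.18 ± 0.08), SMD1B (1.16 ± 0.08), SMD3B (1.11 ± 0.09) and SMD1A (1.03 ± 0.08) were higher too, with every prmt5 library above every WT library. SMB-B was 0.38 ± 0.12 higher (adjusted p = 0.0091; 0.058 without WT heat library 1 and 0.08 with quantile normalization). SMD2A (-0.27 ± 0.10, adjusted p = 0.028) and SMF (-0.25 ± 0.09, adjusted p = 0.018) were lower, but with median-ratio scaling both were above 0 (0.12 and 0.15) and past no threshold. The call of SMD2A also ended without WT heat library 2 (-0.25, adjusted p = 0.072) or 3 (-0.24, 0.081) and without prmt5 heat library 1 (-0.21, 0.11) or 2 (-0.27, 0.06), and that of SMF without prmt5 heat library 2 (-0.20, 0.079). SMD2B, at 1856 ± 93.9 TPM in WT and 1632 ± 148 TPM in prmt5, did not pass (-0.19 ± 0.09, adjusted p = 0.076; past it without prmt5 heat library 3, -0.26, adjusted p = 0.03).

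At 22 °C the genotypes were closer. SMD1A had 36.2, 37.5 and 40.7 TPM in WT and 54.1, 63.8 and 65.5 TPM in prmt5, with no overlap (log2 difference 0.66 ± 0.08, limma adjusted p = 7.9e-05), above that of 98.0% of tested genes. SMD3A was 0.33 ± 0.08 higher (adjusted p = 0.014) and SMD2B 0.29 ± 0.09 higher (adjusted p = 0.041), and the other 7 did not pass. Among all tested genes 3.64% were higher and 11.3% lower (9.21% and 7.46% with median-ratio scaling). The SMD3A call ended without WT 22 °C library 2 (0.32, adjusted p = 0.054) and without prmt5 22 °C library 2 (0.27, adjusted p = 0.075), and that of SMD2B with quantile normalization (0.26, 0.071) and with no filter (0.29, 0.064). The SMD2B call also ended (0.23 to 0.29, adjusted p of 0.05 to 0.16) without WT 22 °C library 1 or 2, WT recovery library 2, prmt5 22 °C library 2 or 3, prmt5 heat library 2, or prmt5 recovery library 1 or 2. Without prmt5 22 °C library 1, SMD2A passed as well (0.28, adjusted p = 0.036). The count was 1 when WT 22 °C library 2 or prmt5 22 °C library 2 was left out, 1 when only the libraries at 22 °C were fitted, and 6 with median-ratio scaling.

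**Figure D3:**
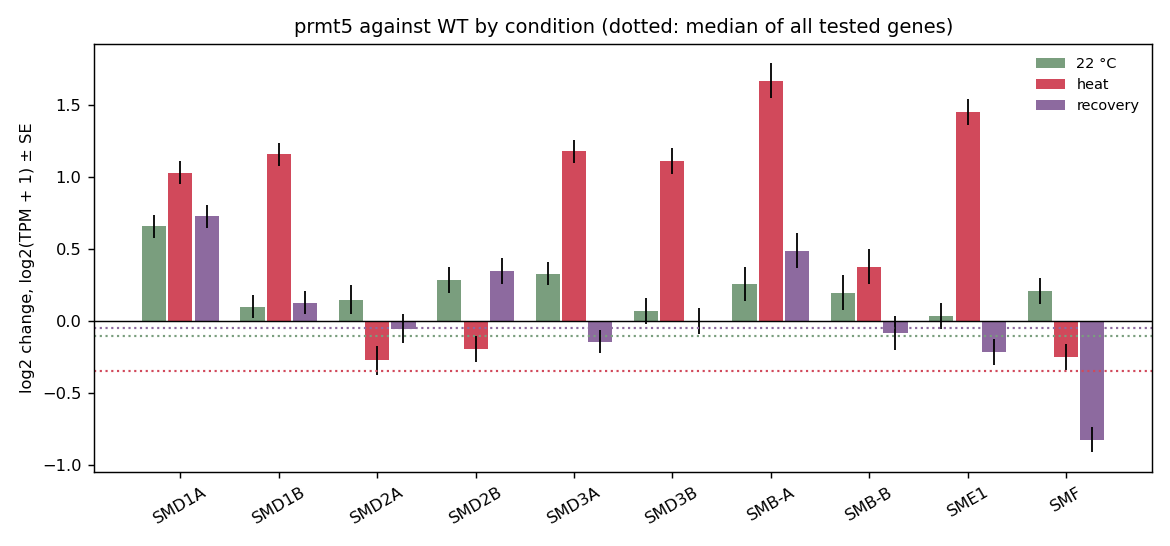
Log2 difference of prmt5 against WT on the log2(TPM + 1) scale (bars, with SE) for each Sm core gene at 22 °C, heat and recovery, with dotted lines at the median of all tested genes in that condition. The bars at heat exceed 1 for SMD1A, SMD1B, SMD3A, SMD3B, SMB-A and SME1, and SMF stands at -0.82 at recovery.

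After 24 h of recovery most levels had come down from heat. In WT 8 genes were lower than at heat, 1 was higher (SMD2A, 0.38 ± 0.10, limma adjusted p = 0.0039) and SMF did not pass (0.00 ± 0.09, adjusted p = 0.98). Among all tested genes 31.2% were higher and 33.7% lower. SMD2B fell by 2.69 ± 0.09 (adjusted p = 2.1e-12), to 268, 289.9 and 304 TPM. SMB-B fell by 1.67 ± 0.12, SMD3A by 1.18 ± 0.08 and SMD1A by 1.11 ± 0.08. The call of SMD3B, which fell by 0.24 ± 0.09 (adjusted p = 0.034), ended without either of WT heat libraries 2 (-0.23, adjusted p = 0.087) and 3 (-0.23, 0.084) or without any 1 of the WT recovery libraries (-0.26 to -0.23, 0.053 to 0.09).

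In prmt5 9 genes were lower at recovery than at heat and SMD2A was higher (0.60 ± 0.10, limma adjusted p = 6.3e-05). Among all tested genes 43.7% were higher and 28.7% lower. SMD3A fell by 2.49 ± 0.08, SME1 by 2.18 ± 0.09, SMD2B by 2.15 ± 0.09 and SMB-B by 2.13 ± 0.12. Without prmt5 recovery library 3 the counts were also 9 and 1, and these changes were -2.54, -2.23, -2.21 and -2.13. The change was lower in prmt5 than in WT for 8 genes, by -1.66 ± 0.12 for SME1 (interaction, adjusted p = 1.2e-07; -1.71 without that library), and higher for SMD2B (0.54 ± 0.13, adjusted p = 0.0027; 0.48 without that library; 0.23 and not past the threshold with median-ratio scaling). The counts of 1 and 8 were the same without that library and 0 and 8 with median-ratio scaling. In this interaction 35.1% of all tested genes were higher and 14% lower (23.9% and 23.6% with median-ratio scaling).

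The comparisons of recovery with 22 °C share their 22 °C libraries with those of heat. Against 22 °C, 4 genes were higher at recovery in WT and 1 was lower, and in prmt5 3 were higher and 3 lower, also without prmt5 recovery library 3. Among all tested genes 49.8% were higher and 17.3% lower in WT, and 53.4% and 24.7% in prmt5. With median-ratio scaling no Sm core gene was higher in either genotype, 4 were lower in WT and 7 in prmt5. With that scaling 30.6% of all tested genes were higher and 30.4% lower in WT, and 40% and 35.8% in prmt5. SMD1B fell in both, by 0.36 ± 0.08 in WT (limma adjusted p = 0.0011) and 0.34 ± 0.08 in prmt5 (adjusted p = 0.0015), and also with median-ratio scaling (-0.75 and -0.79). SME1 fell in prmt5 by 0.39 ± 0.09 (adjusted p = 0.00073). SMD2B was 0.39 ± 0.09 higher in WT and 0.45 ± 0.09 higher in prmt5, but 0.00 and -0.01 with median-ratio scaling. The call of SMB-A in prmt5 (0.38 ± 0.12, adjusted p = 0.011; -0.05 with median-ratio scaling) ended without prmt5 22 °C library 1 (0.28, adjusted p = 0.056) or prmt5 recovery library 1 (0.30, 0.054). That of SMF in WT (0.25 ± 0.09, adjusted p = 0.017; -0.14 with that scaling) ended without WT 22 °C library 2 (0.21, 0.068) or WT recovery library 1 (0.21, 0.068).

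SMF, of the F subunit, was lower in prmt5 than in WT at recovery. It had 190.2, 180.1 and 172 TPM in WT and 97.2, 94.6 and 116 TPM in prmt5, and the groups did not overlap. The log2 difference was -0.82 ± 0.09 (limma adjusted p = 1.4e-06; -0.91 without prmt5 recovery library 3; -0.73 with median-ratio scaling). Against 22 °C it fell by 0.77 ± 0.09 in prmt5 (adjusted p = 5.3e-07), and the difference between the genotypes' responses was -1.02 ± 0.12 (adjusted p = 1.3e-05; -1.115 without that library). SMD3A had a smaller difference of this kind (-0.47 ± 0.12, adjusted p = 0.0041; -0.51 without that library). In this interaction 26.1% of all tested genes were higher and 20.1% lower, and SMF and SMD3A were the 2 Sm core genes past the threshold. The count was 5 with quantile normalization and 4 without prmt5 22 °C library 1, with SMD2A (-0.33, adjusted p = 0.023) and SMB-B (-0.41, 0.037) added there.

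At recovery prmt5 exceeded WT in SMD1A (0.73 ± 0.08, limma adjusted p = 1.7e-06), SMB-A (0.49 ± 0.12, adjusted p = 0.003) and SMD2B (0.35 ± 0.09, adjusted p = 0.0036), with 0.68, 0.51 and 0.29 when prmt5 recovery library 3 was left out. With SMF, which was lower, that made 3 higher, 1 lower and 6 not past the threshold (3 higher and 2 lower without that library), against 27.8% and 31.9% of all tested genes. SME1 at 112 ± 12.3 TPM in WT and 97.1 ± 6.39 TPM in prmt5 missed the threshold (-0.21 ± 0.09, adjusted p = 0.051) and passed it without prmt5 recovery library 3 (-0.26, adjusted p = 0.031). SME1 also passed, with adjusted p in brackets, without WT heat library 1 (0.047), WT recovery library 3 (0.015) or prmt5 22 °C library 1 (0.05 when rounded). The same held without prmt5 heat library 1 (0.038) or 2 (0.049). With quantile normalization both SME1 (-0.29, adjusted p = 0.01) and SMD3A (-0.25, adjusted p = 0.0099) were lower in prmt5. SMD1A was thus the member that was higher in prmt5 in all 3 conditions by the limma test, with no overlap of libraries in any. SMB-A also had no overlap in any condition, but its difference at 22 °C did not pass (0.26 ± 0.12, adjusted p = 0.17). That difference passed with median-ratio scaling (0.41, adjusted p = 0.036) and with quantile normalization (0.45, adjusted p = 0.021).

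Within a library the paralogs of a pair can be set against each other as a log2 ratio of TPM + 1, A over B, a measure that scaling of the library leaves nearly unchanged. Each effect was tested exactly by permuting labels within the other factor, two-sided, and adjusted over 16 tests (4 pairs, 4 effects). Condition labels permuted within genotypes give a p of at least 0.005. No call on a ratio changed when any 1 library was left out, and without prmt5 recovery library 3 the genotype and recovery effects moved by at most 0.01.

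The SMD2 pair shifted most. SMD2B was 3.09, 3.04 and 3.28 times SMD2A in the WT libraries at 22 °C, and 34.1, 33.9 and 30.5 times at the end of heat. In prmt5 the factor was 3.80, 3.26 and 3.35 at 22 °C and 34.9, 34.3 and 35.3 at heat. In WT, SMD2A made up 24.2% ± 0.726 of the pair's TPM before heat and 2.96% ± 0.181 under it. In prmt5 its part was 22.4% ± 1.39 and then 2.79% ± 0.0384. The log2 ratio changed by -3.38 in WT and -3.31 in prmt5, -3.34 on average (exact permutation p = 0.005, the smallest possible, adjusted p = 0.00727). At recovery it was still lower than at 22 °C, by 0.31 in WT and 0.56 in prmt5 (adjusted p = 0.00727), and it was lower in prmt5 than in WT by 0.21 on average (exact permutation p = 0.0005, adjusted p = 0.00727), with overlap of the libraries at 22 °C. From heat to recovery it rose by 2.91 (adjusted p = 0.00727).

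The SMD3 pair changed order at heat. SMD3B was 1.60, 1.55 and 1.55 times SMD3A in WT at 22 °C and 0.620, 0.562 and 0.573 times at heat, so SMD3A was the higher paralog in all 3 heat libraries. In prmt5 the factor went from 1.24, 1.31 and 1.36 to 0.540, 0.590 and 0.541. The log2 ratio rose by 1.41 in WT and 1.22 in prmt5 (exact permutation p = 0.005, adjusted p = 0.00727), and over all 18 libraries SMD3A exceeded SMD3B in 6, which were the heat libraries. The genotype difference averaged 0.07 over conditions (exact permutation p = 0.202, adjusted p = 0.202), with 0.26 at 22 °C and -0.14 at recovery. At recovery the ratio stood above 22 °C by 0.48 in WT and 0.08 in prmt5 (exact permutation p = 0.01, adjusted p = 0.0133), with overlap in prmt5, and it fell by 1.04 from heat (adjusted p = 0.00727).

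The SMD1 pair came to near equality at heat. SMD1B was 2.52, 2.29 and 2.27 times SMD1A in WT at 22 °C and 0.987, 0.939 and 0.975 times at heat. In prmt5 it was 1.57, 1.64 and 1.53 times SMD1A at 22 °C, 1.02, 1.09 and 1.07 times at heat and 1.03, 0.979 and 0.992 times at recovery. The log2 ratio rose at heat by 1.26 in WT and 0.57 in prmt5, and at recovery stood 0.62 and 0.65 above 22 °C (adjusted p = 0.00727 for each effect). The genotype difference averaged 0.34 (exact permutation p = 0.005, adjusted p = 0.00727) but was not uniform, with 0.56 at 22 °C, 0.60 at recovery and -0.13 at heat. From heat to recovery the ratio changed by -0.65 in WT and 0.08 in prmt5 (average -0.28, exact permutation p = 0.095, adjusted p = 0.101).

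In the SMB pair SMB-B was the higher paralog in all 18 libraries. It was 5.12, 5.30 and 5.69 times SMB-A in WT at 22 °C, and 11.5, 12.5 and 9.52 times at heat. In prmt5 it was 4.89, 4.66 and 5.74 times at 22 °C and 5.12, 3.81 and 4.35 times at heat, and those groups overlapped. The ratio was higher in prmt5 than in WT by 0.64 on average (exact permutation p = 0.0015, adjusted p = 0.00727), with 0.06 at 22 °C, 1.28 at heat and 0.57 at recovery. The change at heat was -1.08 in WT and 0.14 in prmt5, and its average of -0.47 did not pass (exact permutation p = 0.085, adjusted p = 0.0971). Whether these responses differ between the genotypes was not tested. At recovery the ratio differed from 22 °C by -0.03 in WT and 0.48 in prmt5 (adjusted p = 0.0923), and it was 0.70 above heat (adjusted p = 0.00727).

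**Figure D4:**
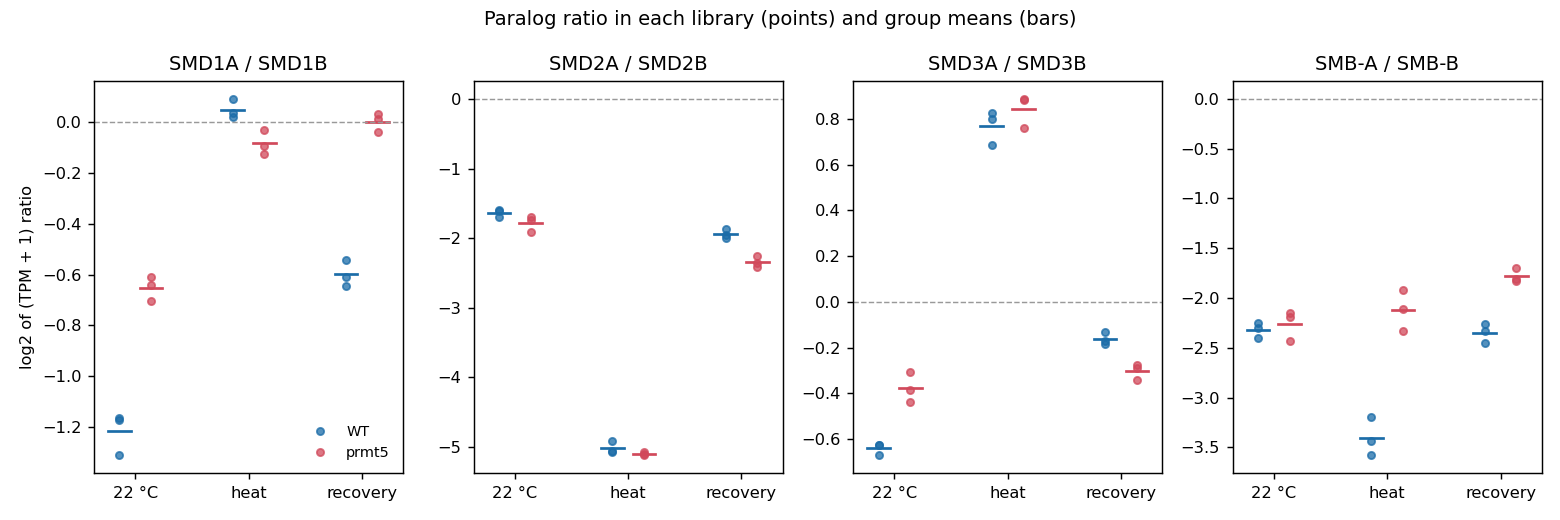
Log2 ratio of TPM + 1 between the A and B paralogs in every library (points) and group means (short bars), with a dashed line at equality. SMD2A over SMD2B drops to about -5 at heat in both genotypes, SMD3A over SMD3B crosses the line, and the SMB ratio drops at heat in WT.

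The other genes of the machinery moved in part along with the Sm core. Of 3 other Sm core genes, SMG-1 (AT2G23930) and SMG-2 (AT3G11500), of the G subunit, rose in WT at heat (1.21 ± 0.07 and 0.71 ± 0.09) and SME2 (AT4G30330), the paralog of SME1, did not pass (0.04 ± 0.09, limma adjusted p = 0.72; 2 higher and 1 lower with median-ratio scaling). All 3 were higher in prmt5 than in WT at heat, SME2 by 0.68 ± 0.09, SMG-2 by 0.71 ± 0.09 and SMG-1 by 0.30 ± 0.07. Of 7 snRNP assembly genes all rose in WT at heat (median 0.88; 6 and median 0.48 with median-ratio scaling), where 49.8% of all tested genes rose and their median was 0.35. GEMIN2 (AT1G54380), whose animal counterpart holds the Sm ring during assembly, went from 10.2 ± 0.269 to 50.4 ± 3.06 TPM (2.19 ± 0.11) and in prmt5 from 13.5 ± 2.83 to 98.0 ± 3.97 TPM. In prmt5 against WT at heat 3 of the 7 were higher, led by GEMIN2 (0.95 ± 0.11), and 3 lower, led by PRMT5 itself (4 and 1 with median-ratio scaling). Among all tested genes 19.9% were higher and 48.3% lower there. PRMT5 carries the insertion, so its call is no result about the assembly genes. Among the lower genes was ICLN, which presents Sm proteins to PRMT5 in animals (-0.30; 0.09 with median-ratio scaling). Of 11 LSm genes, which encode related rings, 7 rose and 4 fell in WT at heat (median 0.28; 3 and 4 with median-ratio scaling), beside 49.8% and 25.7% of all tested genes. In prmt5 against WT at heat 8 were higher and 0 lower (median 0.53; 11 and 0 with median-ratio scaling), LSM6B (AT2G43810) by 1.46, beside 19.9% and 48.3% of all tested genes. Of 15 snRNP-specific protein genes 14 rose and 0 fell in WT at heat (median 1.35; 11 and 1, median 0.95, with median-ratio scaling), beside 49.8% and 25.7% of all tested genes. They were led by STA1 (AT4G03430, 2.60), a pre-mRNA splicing factor. In prmt5 against WT at heat 11 were higher and 2 lower (median 0.44), and 12 and 0 with median-ratio scaling. With that scaling 37.2% of all tested genes rose and 37.3% fell in WT at heat. For prmt5 against WT at heat 33.7% were then higher and 33.4% lower, against 19.9% and 48.3% without it.

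Over the 18 libraries, which share the heat contrast, the profile of each member was compared with 21830 genes by Pearson's r of log2(TPM + 1), as a description. SME1 was most like CNX1 (AT5G61790, a calnexin of the endoplasmic reticulum, r = 0.99) and SDF2 (AT2G25110, r = 0.985). SMD1B was most like MBF1B (AT3G58680, a transcriptional coactivator, r = 0.985) and SHD (AT4G24190, the HSP90 of the endoplasmic reticulum, r = 0.981). SMD3B was most like AT4G29520 (r = 0.99) and LSM6B (r = 0.984), SMB-A like MOS4 (AT3G18165, of a spliceosome-associated complex, r = 0.99) and CYP705A24 (AT1G28430, r = 0.989), and SMB-B like MED6 (AT3G21350, a Mediator subunit, r = 0.99) and AT2G04865 (r = 0.99). SMD2A was most like CDKB1;1 (AT3G54180, a cell division kinase, r = 0.946) and AT4G18501 (r = 0.939). For SMD2B they were AT5G66240 (r = 0.994) and AT1G48700 (0.992), for SMD3A AT1G11800 (0.996) and AT2G06425 (0.99), for SMD1A AT5G56910 (0.988) and AT3G43955 (0.987), and for SMF AT5G64670 (0.943) and AT3G53740 (0.941). SMD2A was negatively correlated with every other member except SMF (r = 0), from r = -0.86 with SMD3A to r = -0.74 with SMD1B. With its own paralog SMD2B r was -0.81, while the paralogs of the SMD1, SMD3 and SMB pairs had r of 0.83, 0.91 and 0.83. The r of SMF with the other members ran from -0.11 (SMB-A) to 0.25 (SMB-B).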

How the data were processed

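The deposited table holds the authors' TPM for 37916 genes in 18 libraries, assigned with RSEM to TAIR10, per the submitters' processing notes (no version is given). RNA was oligo-dT selected, per the labels' protocols. TPM keeps no depth, so no counting intervals or count models were used. Groups came from the titles. No label states that a group's libraries were made from independently grown seedlings, so each p-value reflects library-to-library spread alone, possibly technical.

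limma 3.58.1 in R 4.3.3 (lmFit, contrasts.fit, eBayes with trend) was fitted to log2(TPM + 1) of the 21831 genes with a mean of at least 1 TPM, as 6 group means (12 residual degrees of freedom). Two-sided p-values were Benjamini-Hochberg adjusted within each of 12 comparisons. Paralog ratios were tested by exact permutation of labels within strata. Differences between the genotypes' ratio responses were not tested.

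Named were all 10 members, PRMT5, up to 4 members of each list and comparison with the largest change past the threshold (the text gives some of these), and the 2 genes most like each member. ICLN and SME2 were also named after their values were seen. The members and lists were chosen with earlier results of these data known. Sequences and gene models are from RefSeq TAIR10.1, read with Python 3.11.15 and Biopython. Alternatives were pseudocounts of 0.1 and 5, other filters, median-ratio scaling, quantile normalization, no organelle genes, only the groups compared, robust eBayes, a replicate block, and each library left out. For the paralog ratios only the pseudocounts and each library left out were run.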

Additional observations from a re-analysis of the deposited data

Results flagged for a closer look

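Values that differed between the genotypes' responses, as prmt5 response minus WT response on the log2(TPM + 1) scale with limma's adjusted p under 0.05, are these. For heat against 22 °C they were 0.37 for SMD1A, 1.06 for SMD1B, -0.42 for SMD2A, -0.48 for SMD2B, 0.85 for SMD3A, 1.04 for SMD3B, 1.40 for SMB-A, 1.41 for SME1 and -0.46 for SMF. For recovery against 22 °C they were -0.47 for SMD3A and -1.02 for SMF. For recovery against heat they were -0.30 for SMD1A, -1.03 for SMD1B, 0.54 for SMD2B, -1.32 for SMD3A, -1.11 for SMD3B, -1.18 for SMB-A, -0.46 for SMB-B, -1.66 for SME1 and -0.57 for SMF. The values for recovery against heat share their heat libraries with those for heat against 22 °C. In recovery against heat the calls of SMD1A (adjusted p = 0.033) and SMB-B (adjusted p = 0.03) each ended without any of 7 libraries in turn. For SMD1A these were WT heat library 1, WT recovery libraries 2 and 3, prmt5 heat libraries 2 and 3 and prmt5 recovery libraries 1 and 2 (-0.30 to -0.26, adjusted p of 0.051 to 0.084). For SMB-B they were WT heat libraries 1 and 3, WT recovery libraries 1 and 2, prmt5 heat libraries 1 and 3 and prmt5 recovery library 2 (-0.45 to -0.35, adjusted p of 0.054 to 0.082).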

How the results depend on the processing

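Of the 12 counts of Sm genes past the threshold in either direction, 10 stayed within 1.5 times under every alternative run. Their directions were less stable. With median-ratio scaling, recovery against 22 °C went from 4 higher and 1 lower to 0 and 4 in WT. In prmt5 it went from 3 and 3 to 0 and 7, and the heat interaction went from 6 and 3 to 7 and 0. For prmt5 against WT at 22 °C the count of 3 became 6 with median-ratio scaling and 1 with only the groups compared, and ran from 1 to 4 with each library left out. For the interaction of recovery against 22 °C the count of 2 became 5 with quantile normalization and ran from 2 to 4 with each library left out (4 without prmt5 22 °C library 1). The paralog ratios kept their direction and side of the threshold, except that the heat response of SMB-A over SMB-B passed it with a pseudocount of 5 (-0.621, adjusted p = 0.0431). The cause was not tested.

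Among changes called in at least 1 of the fits compared, these turned sign or came to 0.00 with median-ratio scaling: in WT at heat SMD1B (-0.309), SME1 (-0.028) and SMF (-0.152), at recovery against 22 °C in WT SMD1A (-0.13), SMD2A (-0.302), SMD2B (0.00) and SMF (-0.138) and in prmt5 SMD1A (-0.134), SMD2B (-0.006) and SMB-A (-0.048), and in prmt5 against WT at heat SMD2A (0.121) and SMF (0.148). With quantile normalization the called ones were SMD1A at recovery in WT (0.00) and prmt5 (-0.032) and SMB-A in prmt5 (-0.107). A further 17 of the 120 member changes turned sign in some alternative with no call in either fit. The scaling's own construction moves the median of all genes, at heat in WT from 0.35 to 0.00.

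The replicate numbers did not pair the libraries: deviations of same-numbered libraries correlated by -0.2 to 0.19 (median -0.01), against -0.21 to 0.27 for others. With the replicate block SMD3B in WT at heat (0.213, adjusted p = 0.042), SMD2B in prmt5 against WT at heat (-0.189, 0.049) and SME1 at recovery (-0.207, 0.048) gained a call, SMF in prmt5 at heat (-0.203, 0.052) lost it, and no other member call changed. TPM gives no depth, so what depth limits is unknown.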
